A study of Mus musculus with 7 samples.

Results

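The genes described here are 9 members of the platelet-derived growth factor (PDGF) and vascular endothelial growth factor (VEGF) families: the PDGF receptor genes Pdgfra and Pdgfrb, the PDGF ligand genes Pdgfa, Pdgfb, Pdgfc and Pdgfd, and the VEGF ligand genes Vegfa, Vegfb and Vegfc. They were taken by symbol from the 19144 symbols of the expression table, which held all 9, and the set was chosen on the levels of the wild-type and Chd7 deletion libraries. Their values in that comparison are therefore a description, with no p-value, and calls from the fit across all genes are only counted. RNA came from GFP-positive cells sorted at E10.5, a stage of midgestation, from pharyngeal arches 3 to 6 of mouse embryos. Every embryo carried Wnt1-Cre2, a recombinase driven in the neural crest, and the mTmG reporter, which switches to GFP where the recombinase acts. The 4 wild-type libraries (numbered 1 to 4) are labelled Chd7 +/+, and the 3 Chd7 deletion libraries (numbered 1, 3 and 4) Chd7 loxp/loxp. The stated cross, with Chd7 loxp/loxp mothers, would pass a floxed copy to every embryo, so the +/+ genotype is given as labelled. The number of embryos behind a library is not given in the sources used here, and with no statement that libraries came from separate litters or sorts, the spread between them may be partly technical.

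PDGFs are secreted dimers that act through receptor tyrosine kinases. PDGF-A and PDGF-C act mainly on the alpha receptor, the product of Pdgfra, which marks mesenchyme derived from the neural crest and is needed there for formation of the face and the outflow tract. PDGF-B and PDGF-D act mainly on the beta receptor, the product of Pdgfrb, which recruits the mural cells that coat vessels. VEGF ligands act on receptors that are found mainly on endothelium, so that neural crest cells are usually regarded as a source of VEGF more than as a target.

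Promoter sequence was available for 7 of the 9 genes in RefSeq tables of GRCm38.p6. The windows of Pdgfc, Pdgfra and Vegfc are shown because these members had the largest differences between the genotypes. Each window runs 5′ to 3′ on the gene's own strand (plus for all 3), from 250 bases before the RefSeq start to 50 bases after it. Gene positions given below come from GENCODE M21, whose starts of Pdgfra and Vegfc lie further downstream. The Vegfc window, which ends at 54077581, lies wholly before the GENCODE start at 54077606. Capitals mark the GC box GGGCGG, searched on both strands.
Pdgfc, chr3:81036166-81036465: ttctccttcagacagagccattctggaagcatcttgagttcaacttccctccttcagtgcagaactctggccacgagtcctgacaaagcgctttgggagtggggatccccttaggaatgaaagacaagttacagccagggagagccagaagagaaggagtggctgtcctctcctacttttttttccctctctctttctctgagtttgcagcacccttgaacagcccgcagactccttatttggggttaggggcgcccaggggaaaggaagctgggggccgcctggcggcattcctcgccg
Pdgfra, chr5:75152001-75152300: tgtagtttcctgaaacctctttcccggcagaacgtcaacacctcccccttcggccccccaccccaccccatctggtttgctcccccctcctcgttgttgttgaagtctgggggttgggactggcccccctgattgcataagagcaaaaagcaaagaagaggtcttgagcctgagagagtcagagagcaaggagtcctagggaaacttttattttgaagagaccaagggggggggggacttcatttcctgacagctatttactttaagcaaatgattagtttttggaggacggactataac
Vegfc, chr8:54077282-54077581: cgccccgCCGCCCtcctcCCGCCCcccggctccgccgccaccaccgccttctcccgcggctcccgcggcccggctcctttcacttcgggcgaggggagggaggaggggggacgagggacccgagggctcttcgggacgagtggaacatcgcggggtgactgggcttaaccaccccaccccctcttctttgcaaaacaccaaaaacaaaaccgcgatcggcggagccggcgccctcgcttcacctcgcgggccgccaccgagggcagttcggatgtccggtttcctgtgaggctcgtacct

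The 3 windows differed in composition. That of Vegfc held 70.3% G and C, 35 CpG dinucleotides and 2 GC boxes, and 93.0% of the 32851 windows in the table held fewer CpGs. That of Pdgfc held 55.0% G and C with 8 CpGs, and that of Pdgfra 51.0% with 5 CpGs, close to the median window with 52.7% and 7 CpGs. Neither contained a GC box, which 35.7% of all windows held. None of the 3 contained the TATA box TATAAA (13.6% of windows) or CCAAT (37.4% of windows), searched on both strands. The letters CANNTG, the E-box, occurred 2 times in the Pdgfra window and in neither other, against 72.3% of all windows. Such matches describe the letters in these windows and give no binding.

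Chd7, which encodes a chromatin remodeller, lay between 13.9 and 14.6 FPKM (fragments per kilobase of transcript, scaled to library size) in the wild type and between 7.5 and 7.91 FPKM after deletion, 54.3% of the wild-type mean (limma, adjusted p = 0.00266). The deleted exon is not named, so these values cover the whole gene. In limma on log2(FPKM + 1), 98 of 11039 tested genes passed an adjusted p of 0.05 (0.888%), 53 of them lower after deletion (0.48%). The libraries numbered 1 and 2 differed from those numbered 3 and 4 in both genotypes along the first principal component, which held 60.5% of the variance. Chd7 deletion 1 also had the highest share of FPKM in the ribosomal RNA precursor Rn45s (8.68%, against 4.11% to 7.15% in the other libraries). With the replicate number as a block, 366 genes passed (3.32%), 251 of them lower (2.27%). Relative to wild type 1, the depth of the libraries ranged from 0.865 to 1.29. It was first estimated from the spacing of low values, then refined on 723 genes whose values matched whole numbers of reads.

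In the wild type the PDGF receptors were the most highly expressed members. Pdgfrb had a mean of 23.7 ± 3.64 FPKM (SD, n = 4) and Pdgfra 22.9 ± 4.27 FPKM, and the ranges of the receptors overlapped. Pdgfc followed at 11.2 ± 0.306 FPKM and had the smallest spread of the 9, 2.74% of its mean. Vegfa (7.62 ± 0.564 FPKM) and Vegfb (6.62 ± 0.412 FPKM) overlapped, and Vegfc (2.35 ± 0.387 FPKM) and Pdgfa (1.64 ± 0.208 FPKM) came next without overlap. Pdgfd (0.343 ± 0.0865 FPKM) and Pdgfb (0.294 ± 0.0503 FPKM), the ligands of the beta receptor, were the lowest and overlapped. Both lay under the mean of 1 FPKM needed for the fit across genes, which 7 of the 9 members passed. After deletion the order differed in the middle and at the foot, with Vegfa above Pdgfc (their ranges overlapped), Pdgfa above Vegfc and Pdgfb above Pdgfd.

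**Figure D1:**
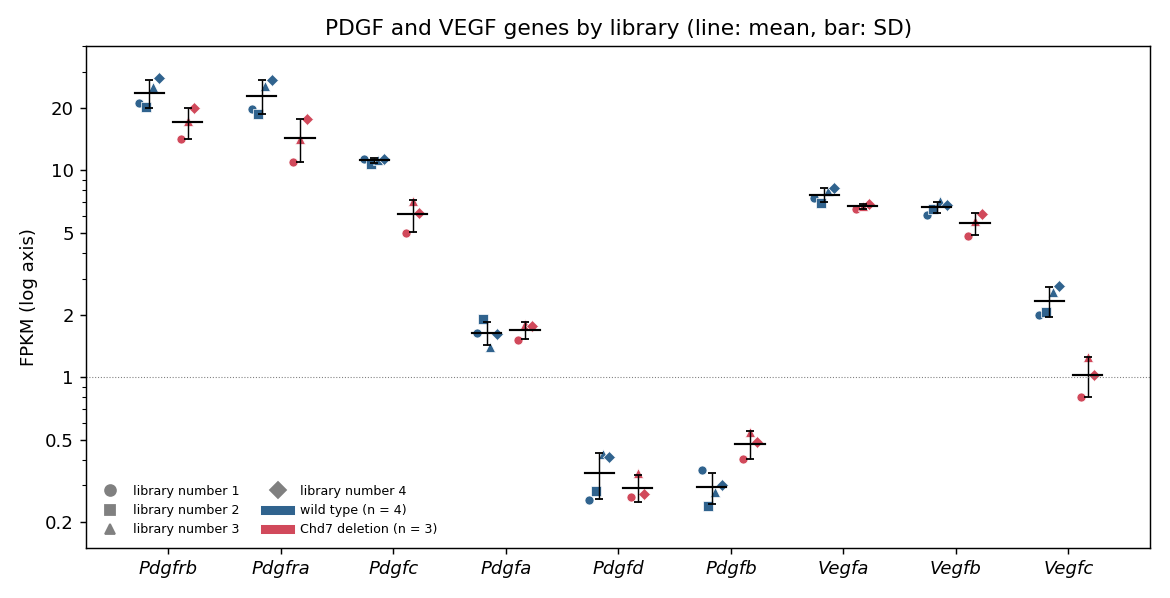
FPKM of the 9 genes in each library on a log axis, grouped as PDGF receptors, PDGF ligands and VEGF ligands; symbols give the library number, lines the group mean and bars the SD (wild type n = 4, Chd7 deletion n = 3). Deletion libraries lie below all wild-type libraries for Pdgfrb, Pdgfra, Pdgfc, Vegfa and Vegfc, and above them for Pdgfb.

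For 6 of the 9 members no deletion library fell within the range of the wild type, 5 of them among the 7 tested. Among all tested genes this held for 9.17%. Below the wild type were Pdgfra, Pdgfrb, Pdgfc, Vegfa and Vegfc, and above it was Pdgfb, while Pdgfa, Pdgfd and Vegfb overlapped. Of the 7 tested members, Pdgfc and Vegfc were among the 53 genes called lower in the fit across all genes, and 4 (Pdgfra and Pdgfrb in addition) were called lower with the replicate block. The background of such lower calls is 0.48% and 2.27%, and since this contrast was used to choose the members, nothing is read from these counts. The calls of Pdgfc and Vegfc depended on the libraries and, for Vegfc, on the filter. Neither was called without wild type 1, 2 or 3 or without Chd7 deletion 4, and Pdgfc alone was called without wild type 4 or without Chd7 deletion 1 or 3. Pdgfc alone was also called with no filter on low values. In bulk RNA, fewer cells of a type and less RNA per cell cannot be told apart.

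Both PDGF receptor genes were at lower levels after deletion. Pdgfra, on chromosome 5 from 75152292 to 75198215, was at 19.9, 18.8, 25.7 and 27.5 FPKM in wild type 1 to 4 and at 11.0, 14.2 and 17.8 FPKM in Chd7 deletion 1, 3 and 4. Every deletion library was below every wild-type library, although deletion 4 came close to wild type 2. The mean after deletion was 14.4 ± 3.38 FPKM (SD, n = 3), 62.6% of the wild type, with a log2 difference of -0.65 (standard error 0.18). Pdgfrb, on chromosome 18 from 61045150 to 61085061, was at 21.1, 20.2, 25.4 and 27.9 FPKM in the wild type and at 14.2, 17.3 and 20.1 FPKM after deletion. The groups were separated only by the gap between wild type 2 at 20.2 and deletion 4 at 20.1 FPKM. The mean after deletion was 17.2 ± 2.91 FPKM, 72.6% of the wild type, with a log2 difference of -0.44 (standard error 0.14).

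The spread within each group followed the library numbers. Both receptors were higher in wild type 3 and 4 than in wild type 1 and 2, and in each genotype the library numbered 4 was the highest. Compared with the wild-type library of the same number, Pdgfra was at 55.6%, 55.5% and 64.8% for numbers 1, 3 and 4, and Pdgfrb at 67.4%, 68.0% and 71.8%. Taking the numbers as pairs, which the sample titles do not state, each gave a similar ratio in spite of the spread in level. Wild type 1 and 2 were also close to each other, as were wild type 3 and 4. The ratios thus cannot tell pairs from these sets of libraries. The difference was smaller for Pdgfrb than for Pdgfra in all 3 pairs. Pdgfra made up 48.5%, 48.2%, 50.2% and 49.6% of the summed FPKM of the receptors in the wild type and 43.7%, 45.2% and 47.0% after deletion. These shares, which do not depend on the scaling between libraries, did not overlap between the groups.

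**Figure D2:**
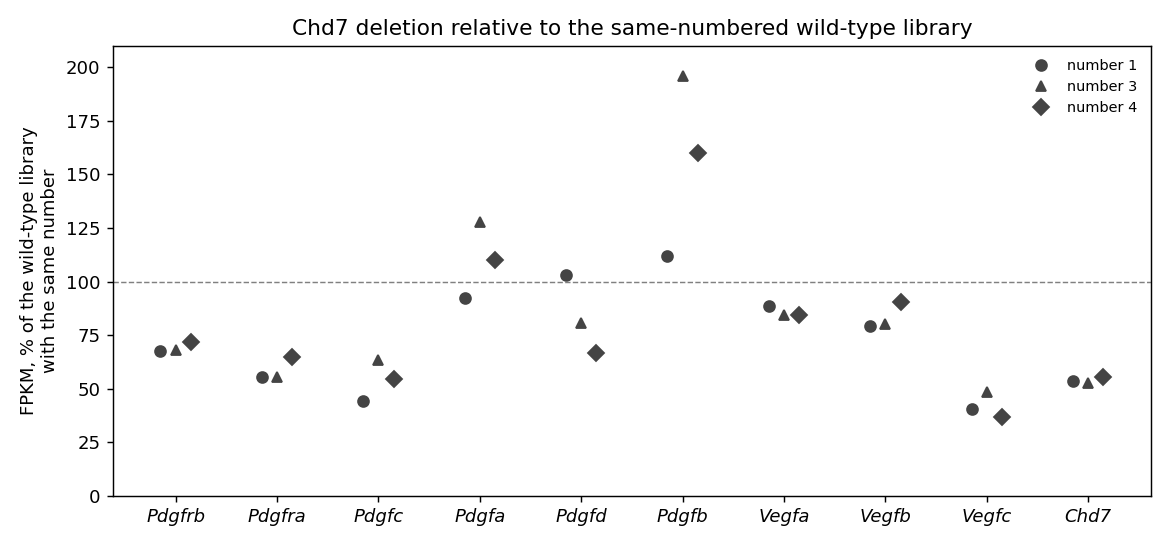
FPKM in Chd7 deletion 1, 3 and 4 as a percentage of the wild-type library with the same number, for the 9 genes and Chd7; the dashed line marks equal levels. Pdgfrb, Pdgfra, Pdgfc, Vegfa, Vegfb and Vegfc lie below 100% in all 3 pairs, and Pdgfb lies above it in all 3.

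Among the PDGF ligands, Pdgfc stood apart. It encodes a ligand of the alpha receptor that is secreted in a latent form and activated by proteolysis, and it lies on chromosome 3 from 81036416 to 81214040. Its level was 11.4, 10.8, 11.2 and 11.4 FPKM in wild type 1 to 4 and 5.01, 7.14 and 6.23 FPKM in Chd7 deletion 1, 3 and 4. The wild-type libraries were nearly level, without the offset between numbers that the receptors had, and all deletion libraries were well below them. The mean after deletion was 6.13 ± 1.07 FPKM (SD, n = 3), 54.7% of the wild type, with a log2 difference of -0.79 (standard error 0.1). Behind these values stand 1169 to 1554 reads in each wild-type library and 604 to 827 in each deletion library, the smallest whole numbers that give the deposited FPKM. By number, the pairs gave 44.0%, 63.5% and 54.5%.

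Pdgfa, the other ligand of the alpha receptor, did not show such a difference. It was at 1.64, 1.91, 1.4 and 1.61 FPKM in the wild type and at 1.51, 1.8 and 1.77 FPKM after deletion, with overlapping groups. The log2 difference was 0.03 (standard error 0.089), on 93 to 164 reads per library. Pdgfa was lower in the pair numbered 1 (92.3%) and higher in the pairs numbered 3 and 4 (128% and 110%).

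The ligands of the beta receptor were low in every library. Pdgfb, which in the embryo is made chiefly by endothelium, was at 0.358, 0.238, 0.278 and 0.303 FPKM in the wild type and at 0.401, 0.545 and 0.485 FPKM after deletion. All deletion libraries were above all wild-type libraries, by 1.62-fold on the means, with only 27 to 35 reads in each wild-type library and 41 to 55 in each deletion library. In the pair numbered 1 the difference was small (112%), against 196% and 160% for numbers 3 and 4. Pdgfd, which like Pdgfc encodes a latent ligand, was at 0.256, 0.282, 0.425 and 0.41 FPKM in the wild type and at 0.263, 0.343 and 0.273 FPKM after deletion. Its groups overlapped, on 24 to 43 reads per library.

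Pdgfc was the main PDGF ligand transcript in both genotypes, at different shares. Pdgfc made up 83.5%, 81.6%, 84.2% and 83.1% of the summed FPKM of the 4 PDGF ligands in the wild type and 69.7%, 72.6% and 71.1% after deletion. Summed over the 4 ligands, wild-type libraries had 13.5 ± 0.26 FPKM (SD, n = 4) and deletion libraries 8.59 ± 1.33 FPKM (SD, n = 3). Summed over the receptors they had 46.6 ± 7.9 FPKM and 31.6 ± 6.29 FPKM.

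**Figure D3:**
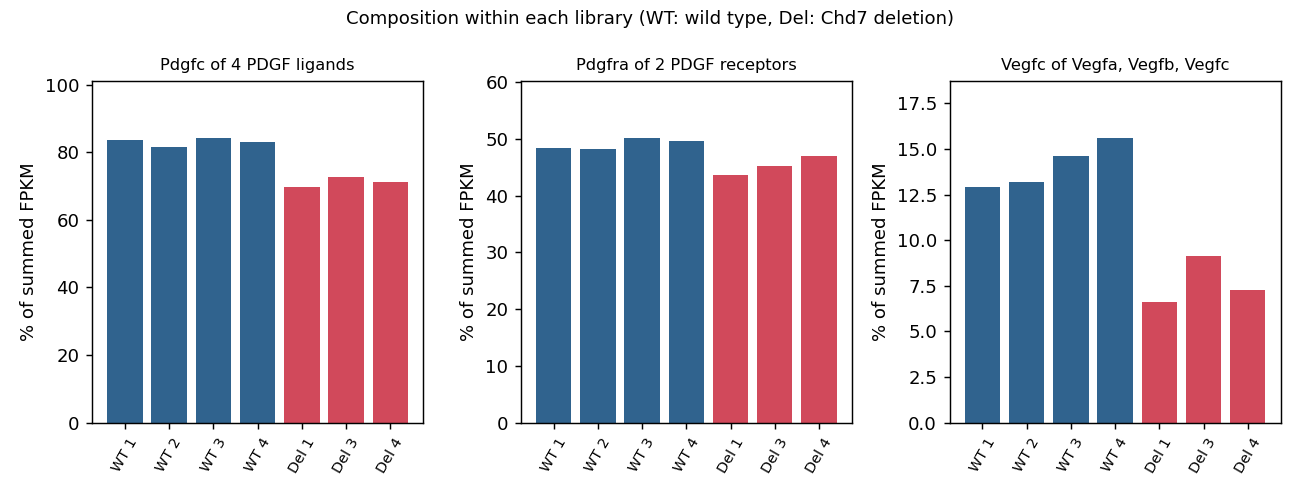
Share of Pdgfc in the summed FPKM of the 4 PDGF ligands, of Pdgfra in that of the PDGF receptors, and of Vegfc in that of Vegfa, Vegfb and Vegfc, as bars from 0 for each library (WT, wild type; Del, Chd7 deletion). In all 3 panels the deletion libraries lie below every wild-type library, with Pdgfc between 69.7% and 72.6% against 81.6% to 84.2%.

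Of the VEGF ligands, Vegfc had the largest difference. VEGF-C acts mainly on the receptor encoded by Flt4 and is known for the growth of lymphatic vessels. The gene lies on chromosome 8 from 54077606 to 54187096. Its level was 1.99, 2.06, 2.58 and 2.77 FPKM in wild type 1 to 4 and 0.801, 1.25 and 1.02 FPKM in Chd7 deletion 1, 3 and 4. No library of either group reached the range of the other. The mean after deletion was 1.02 ± 0.224 FPKM (SD, n = 3), 43.6% of the wild type, the lowest ratio among the 9. The log2 difference on log2(FPKM + 1) was -0.72 (standard error 0.12), a scale that understates the change of a low gene. Between 117 and 156 reads per wild-type library and between 52 and 76 per deletion library stand behind them, and the pairs gave 40.3%, 48.5% and 36.8%.

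Vegfa and Vegfb differed less. Vegfa, the main endothelial growth factor and a target of the hypoxia-inducible factors, was at 7.35, 6.96, 7.96 and 8.2 FPKM in the wild type and at 6.49, 6.72 and 6.9 FPKM after deletion. The groups touched, with wild type 2 at 6.96 and deletion 4 at 6.9 FPKM. The mean after deletion was 88.0% of the wild type, the log2 difference was -0.16 (standard error 0.075), and the pairs gave 88.4%, 84.4% and 84.2%. Vegfb, whose product binds the receptor encoded by Flt1, was at 6.11, 6.53, 7.08 and 6.77 FPKM in the wild type and at 4.84, 5.69 and 6.14 FPKM after deletion. Deletion 4 and wild type 1 overlapped, although each pair was below 100% (79.2%, 80.3% and 90.6%), and the log2 difference was -0.22 (standard error 0.089). The median log2 difference of all tested genes was -0.04, or -0.07 with the replicate block, against which these small differences are to be read. Summed FPKM of all symbols also differed, at 194741 in wild type 1 and 170809 in deletion 1. It was 202804 and 206059 for number 3, and 209560 and 190877 for number 4. After rescaling by the median ratio the log2 difference was -0.12 for Vegfa and -0.18 for Vegfb. Vegfc made up 12.9% to 15.6% of the summed FPKM of Vegfa, Vegfb and Vegfc in the wild type and 6.61% to 9.14% after deletion.

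The family genes outside the 9 were the ligand genes Pgf and Vegfd, the VEGF receptor genes Flt1, Kdr and Flt4, and the co-receptor genes Nrp1 and Nrp2. The co-receptors, which bind VEGFs and also class 3 semaphorins, were the only ones with a mean of at least 1 FPKM, and neither passed the threshold. Nrp1 lay between 13.0 and 16.0 FPKM in the wild type and at 14.4, 15.5 and 15.1 FPKM after deletion, with a log2 difference of 0.04 (standard error 0.084; limma, adjusted p = 0.966). Nrp2 was at 14.1 ± 1.8 FPKM (SD, n = 4) in wild-type and 13.8 ± 1.82 FPKM (SD, n = 3) in deletion libraries, with a log2 difference of -0.03 (standard error 0.12; limma, adjusted p = 0.984). Neither had an unadjusted p below 0.05. Transcripts of the signalling receptors were scarce in these cells. Kdr lay between 0.675 and 1.25 FPKM over the 7 libraries, Flt1 between 0.216 and 0.28 FPKM and Flt4 between 0.131 and 0.278 FPKM. Only Flt1 had groups that did not overlap, with means of 0.258 and 0.224 FPKM (limma with no filter, adjusted p = 0.792).

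Vegfd, the closest relative of Vegfc, was at 1.01, 0.761, 0.779 and 0.885 FPKM in the wild type and at 0.169, 0.567 and 0.348 FPKM after deletion. The groups did not overlap, from 49 to 64 reads in each wild-type library and 12 to 37 in each deletion library. With no filter on low values its log2 difference of -0.46 (standard error 0.1) did not pass the threshold (limma, adjusted p = 0.171 over 19144 genes). Pgf, which encodes placental growth factor, was at 0.519 ± 0.0979 FPKM (SD, n = 4) and 0.648 ± 0.07 FPKM (SD, n = 3) with overlapping groups.

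Genes that act with these ligands and receptors were taken as 4 lists, and no gene of any list passed the threshold in limma. Counts of unadjusted p below 0.05, here and below, are to be read against those of all 11039 tested genes. In limma 815 of these had such a p, and with the replicate block 2514. In the list of PDGF processing and binding, 6 of 8 genes were tested, 5 had a log2 difference below 0 and none an unadjusted p below 0.05 (1 with the replicate block), with a median of -0.09. The collagen-binding protein gene Sparc, whose product binds PDGFs, was at 33.2 ± 3.38 and 38.4 ± 7.61 FPKM, and Bsg, a membrane glycoprotein gene, at 54.4 ± 4.4 and 51.6 ± 10.3 FPKM. Lrp1, an endocytic receptor gene that interacts with PDGF receptors, was at 18.9 ± 1.88 and 17.0 ± 1.42 FPKM. The adjusted p of these genes in limma lay between 0.923 and 0.956. Among 24 genes of receptor signalling, 12 lay above 0 and 12 below, with a median of 0.0 and 1 unadjusted p below 0.05. With the replicate block 14 lay below 0, the median was -0.04 and 7 had an unadjusted p below 0.05, with none past the adjusted threshold. Gab1, an adaptor of receptor tyrosine kinases, was at 11.3 ± 0.361 and 13.3 ± 0.36 FPKM (limma, adjusted p = 0.312), with no overlap. The kinase gene Akt1 was at 48.5 ± 1.61 and 43.6 ± 1.12 FPKM (limma, adjusted p = 0.716), also with no overlap. Fyn, a Src family kinase gene, was at 12.4 ± 1.3 and 14.3 ± 0.707 FPKM (limma, adjusted p = 0.73).

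Feedback and immediate early genes, which respond to growth factor signalling, had a median of -0.03, with 8 of 19 above 0 and 4 unadjusted p below 0.05. With the replicate block 10 had an unadjusted p below 0.05, and 1 rose and 1 fell past the adjusted threshold. Egr2, an immediate early and glial transcription factor gene, was at 1.05 ± 0.255 and 1.67 ± 0.274 FPKM (limma, adjusted p = 0.316, and 0.0471 with the block). Etv4, a transcription factor gene induced by FGF signalling, was at 5.57 ± 0.984 and 3.89 ± 0.659 FPKM (limma, adjusted p = 0.348, and 0.0213 with the block). Jun, the most highly expressed gene of the list by the mean over all libraries, was at 37.9 ± 5.51 and 39.8 ± 3.47 FPKM (limma, adjusted p = 0.957). The HIF regulators and hypoxia targets, among which Vegfa is usually counted, had a median of -0.09, with 15 of 22 below 0 and 1 unadjusted p below 0.05. With the replicate block 19 of 22 lay below 0, with a median of -0.15 against -0.07 for all tested genes, and 8 had an unadjusted p below 0.05. Of these, P4ha2, a prolyl hydroxylase gene of collagen synthesis, alone passed the adjusted threshold, and fell (4.19 ± 0.799 and 3.08 ± 0.752 FPKM; limma, adjusted p = 0.704, and 0.0416 with the block). Epas1, which encodes a hypoxia-inducible factor, was at 2.05 ± 0.251 and 1.39 ± 0.2 FPKM without overlap (limma, adjusted p = 0.225, and 0.0619 with the block). The glycolytic enzyme gene Eno1, the most highly expressed of this list, was at 407 ± 45.1 and 351 ± 55.5 FPKM (limma, adjusted p = 0.925). The values of each pair are the wild type (SD, n = 4) and the deletion (SD, n = 3).

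**Figure D4:**
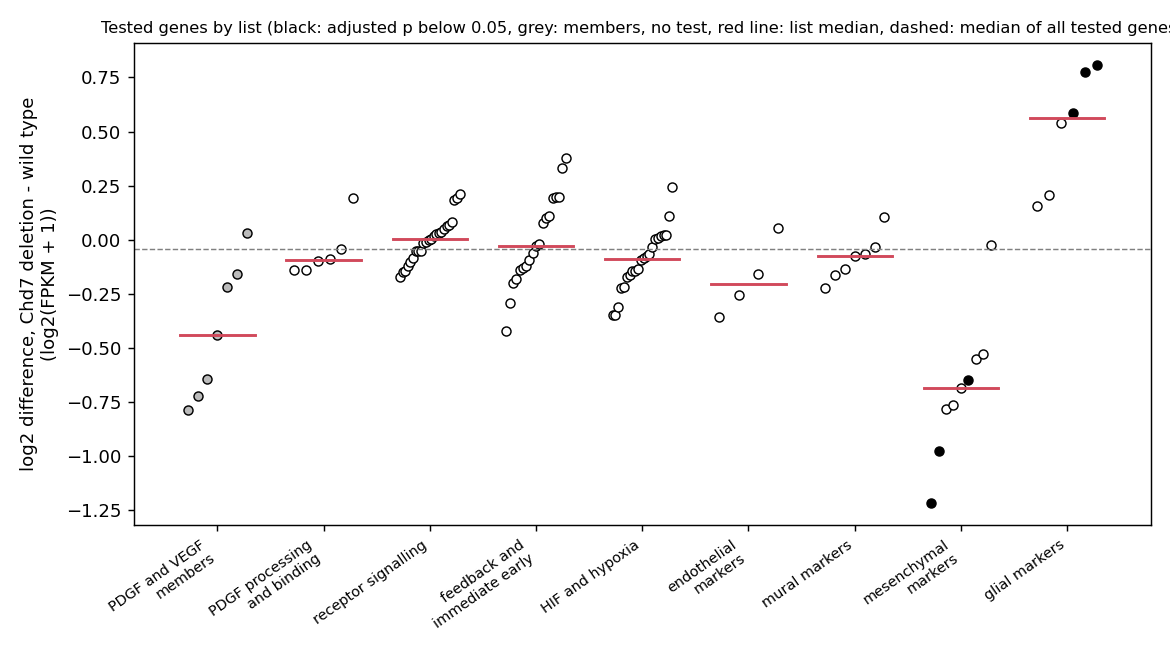
Log2 difference (Chd7 deletion minus wild type, on log2(FPKM + 1)) of every tested gene in the 9 members, the 4 pathway lists and 4 marker lists; black points passed an adjusted p of 0.05 in limma, members are grey and unmarked because they were chosen on this contrast, red lines are list medians, and the dashed line is the median of all tested genes. The pathway lists lie around the dashed line, the members have a median of -0.44, mesenchymal markers one of -0.69 and glial markers one of 0.56.

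Markers of mesenchyme and of glia differed between the genotypes. Of the PDGF members, Pdgfra, Pdgfrb and Pdgfc were lower after deletion, Pdgfa and Pdgfd overlapped, and Pdgfb was higher. All 9 mesenchymal markers were tested and had a log2 difference below 0 (8 of 9 after rescaling by the median ratio), and 3 of them fell (Col1a1, Col3a1 and Lum; 8 of 9 with the replicate block). Their summed level was 216 to 265 FPKM in the wild type and 133 to 162 FPKM after deletion. Col3a1, a fibrillar collagen gene, was at 75.3 ± 8.06 FPKM (SD, n = 4) and 31.8 ± 4.51 FPKM (SD, n = 3). Prrx1, a mesenchymal homeobox gene, was at 61.4% of the wild-type mean after deletion and Twist1, a mesenchymal transcription factor gene, at 57.6%, beside 62.6% for Pdgfra. Col1a2, a collagen gene of the same list, was at 98.4% with overlapping groups. Prrx1, Twist1 and Col1a2, and Fabp7 and Cdh19 below, are named after their values were seen. Of 6 tested glial markers 3 rose (Sox10, Erbb3 and Foxd3), and 4 with the replicate block. The summed level of the 7 listed was 75.4 to 86.6 FPKM in the wild type and 116 to 128 FPKM after deletion. Fabp7 (means of 20.7 and 23.9 FPKM) and Cdh19 (4.15 and 4.72 FPKM), of the same list, had overlapping groups. Sox10, a transcription factor gene of neural crest and glia, was at 19.5 ± 2.38 FPKM (SD, n = 4) and 34.1 ± 3.46 FPKM (SD, n = 3). No mesenchymal or glial marker was at 0 in any library, and the part of either in the levels of the members was not tested.

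Markers of the cells that VEGF and PDGF-B address gave sums that overlapped between the genotypes. The 15 endothelial markers summed to 7.94 to 12.4 FPKM in the wild type and 6.61 to 10.6 FPKM after deletion, 11 of them stayed below 1 FPKM in every library, none was at 0 in any library, and none of the 4 tested passed the threshold in limma or had an unadjusted p below 0.05. Of these 4, 3 had a log2 difference below 0, with a median of -0.21 against -0.04 for all tested genes. With the replicate block all 4 lay below 0, with a median of -0.26 against -0.07. With that block 2 had an unadjusted p below 0.05 and 1 of them, Plvap, fell. The 10 mural markers, which share the beta receptor as a marker of that cell type, summed to 71.9 to 102 FPKM and 65.1 to 92.8 FPKM, with none of 7 past the threshold in limma, where 1 had an unadjusted p below 0.05 (4 with the replicate block, none past the threshold). Of the 7 tested mural markers, 6 lay below 0, with a median of -0.08, and all 7 with the replicate block, with a median of -0.16. Among all mural markers, Kcnj8 was listed at 0 in Chd7 deletion 1 and no other was at 0 in any library. The neural crest markers were all detected above 1 FPKM and summed to 122 to 151 FPKM in the wild type and 136 to 157 FPKM after deletion. Sox10 and Foxd3, both also on the glial list, were the 2 of 9 that rose. Msx2 and Twist1, the latter also on the mesenchymal list, fell with the replicate block. Macrophage markers summed to at most 1.06 FPKM, arch mesoderm markers to at most 4.36 FPKM, cardiomyocyte markers to at most 8.16 FPKM and epithelial markers to at most 17.2 FPKM. Erythroid markers, led by Hbb-y, summed to 22.5 to 55.2 FPKM over all libraries.

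The profile of a gene over the 7 libraries, centred on its mean and scaled to a common spread, was compared with that of every other tested gene by root mean square distance. Pdgfra and Pdgfrb were closer to each other (distance 0.0893) than Pdgfra was to any tested gene outside the 9. The closest of those were Dnm3os, a noncoding host of microRNAs, at 0.105, the ephrin receptor gene Ephb4 at 0.116 and the exchange factor gene Prex2 at 0.124, where the median of the tested genes was 1.01. For Vegfc the closest were the transcription factor genes Foxp2 (0.0934) and Barx1 (0.104) and the receptor gene of parathyroid hormone, Pth1r (0.0972). For Pdgfc they were Slc27a3, a fatty acid transporter family gene (0.0683), the laminin gene Lama2 (0.125) and the homeobox gene Hoxa2 (0.141). Pdgfc and Vegfc lay 0.271 apart, Pdgfc and Pdgfra 0.534. These distances describe 7 libraries that share the same 2 genotypes and library numbers, and the nearest of 11039 genes is close by selection.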

How the data were processed

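The data are FPKM values, deposited as a single table with 7 library columns. The submitters' processing notes name HISAT2, Partek, SAMtools, Trimmomatic 0.38, bcl2fastq 2.18.0.12 and the build mm10, without roles. For annotation, filters and handling of strand, the entry is "not given in the sources used here". Per the labels' protocols, libraries were strand-specific and depleted of ribosomal RNA, with RNA integrity numbers of 9.5 or above. FPKM moves with whatever else fills a library, and no rescaling was applied in the main analysis.

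Of 19169 rows, 25 with a date in place of a symbol were left out. The 11039 genes whose mean reached 1 FPKM were tested on the scale log2(FPKM + 1). The test was the moderated one of limma 3.58.1 (R 4.3.3, variance trend on mean level, 2-sided), with Benjamini-Hochberg adjustment over all of them at 0.05. Differences are deletion minus wild type. For Pdgfb, Pdgfd and other genes under 1 FPKM, estimates come from the same fit without the filter. Whole reads were sought per gene as the smallest numbers, up to 3000, that match all 7 libraries within 0.05 read. They were found for 73.4% of tested genes. Members without such a match were searched again, to higher numbers and within 0.1 read. With this looser search included, 8 of the 9 members had whole reads (not Pdgfra). Whole reads were used only to show depth. Gene positions came from GENCODE M21 (GRCm38, the assembly that mm10 names), by symbol.

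The members and lists were chosen with earlier results of these data known. Named genes were the members, Chd7, the family genes outside the 9, the genes of each list that passed the threshold or else its highest gene and its largest differences, and for the 3 members with the largest differences the 3 nearest profiles. Same-numbered libraries deviated together (correlations over 11039 genes of 0.7, 0.4 and 0.77 for numbers 1, 3 and 4). Some with different numbers did too: wild type 2 with Chd7 deletion 1 (0.59), wild type 3 with deletion 4 (0.38) and wild type 4 with deletion 3 (0.25). Numbers 1 and 2 against 3 and 4 gave -0.72 to -0.31. Deviations were taken from each gene's mean within its genotype, which by itself pushes some of these values below 0. The correlations thus follow these library sets. Within a set the same-numbered library was always the closest, narrowly for wild type 3 (0.4 with deletion 3, 0.38 with deletion 4). With so few libraries this does not establish pairs. The sample titles state no pairs, so taking the numbers as pairs is an assumption. The replicate block is given where it changed a call or a count of calls, and for the pathway lists. It is also given for the mesenchymal, glial, neural crest, endothelial and mural markers. Wild type 2 has no partner. Alternatives changed the pseudocount, the filter, the scaling, the variance trend, library weights, the block, a covariate for the library set, and the libraries used. Figures were made with matplotlib 3.10.9 in Python 3.11.15.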

Additional observations from a re-analysis of the deposited data

How the results depend on the processing

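The count of genes past the threshold (98) was 62 with no filter, 156 after rescaling by the median ratio, 213 with weights per library, 366 with the replicate block and 720 with the library set as a covariate, and ranged from 4 (without wild type 3 or Chd7 deletion 4) to 78 when single libraries were left out. Leaving out Chd7 deletion 3 gave 12, and leaving out wild type 1, 2 or 4 gave 40, 35 and 53. Beyond the counts given here and in the report, the replicate block changed no other call. The 4 pathway lists and the family genes had no call in the main fit and none when any library was left out. With the library set as a covariate, 1 receptor signalling gene, 2 feedback genes and 4 hypoxia genes passed, and with the replicate block 2 feedback genes and 1 hypoxia gene. The endothelial markers Pecam1 and Plvap were called lower with the library set as a covariate. Of the 7 tested members, 5 were called lower with that covariate, where 551 of 11039 genes were. In the libraries numbered 3 and 4, 3 members were called lower, where 86 of 11042 genes were. Nothing is read from these member counts, since the members were chosen on this contrast. Among the member differences, the pseudocount of 0.1 gave -1.13 for Vegfc, 0.55 for Pdgfb and -0.16 for Pdgfd, since a smaller pseudocount compresses low values less, and Pdgfa was 0.15 in the libraries numbered 3 and 4. Over all alternatives run, Pdgfc lay between -0.89 and -0.67, Vegfc between -1.13 and -0.64, Pdgfra between -0.8 and -0.47, Pdgfrb between -0.55 and -0.31, Vegfa between -0.22 and -0.12 and Vegfb between -0.29 and -0.14. Pdgfa ranged from -0.01 to 0.15. For Pdgfb and Pdgfd the alternatives that need the fit with the filter gave no value. Depth limits Pdgfb and Pdgfd, which rest on at most 55 reads per library.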

Other observations

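The tested genes nearest to each member on either side of it on its chromosome, 18 in all and chosen by position after the members' values were seen, had log2 differences between -0.22 and 0.26. None passed the threshold in limma (lowest adjusted p = 0.561) or with the replicate block (lowest adjusted p = 0.0735), and 1 had an unadjusted p below 0.05. Next to Pdgfc, the glycine receptor gene Glrb (123 kb away) was at 1.34 and 1.27 FPKM in the wild type and after deletion, and the protease gene Ctso (719 kb away) at 1.07 and 0.952 FPKM. Next to Vegfc, the DNA repair gene Neil3 was at 2.87 and 2.52 FPKM and the signal peptidase gene Spcs3 at 20.1 and 18.9 FPKM. Next to Pdgfra lie Chic2, at 8.28 and 7.04 FPKM, and the related receptor gene Kit, at 5.01 and 6.15 FPKM. Kit, which encodes the receptor for stem cell factor and marks melanoblasts, was the only one of the 18 whose groups did not overlap. Among all tested genes this held for 9.17%. Its log2 difference was 0.26 (standard error 0.099, limma adjusted p = 0.561), and nothing is read from its direction beside that of Pdgfra.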
